A study of Homo sapiens with 21 samples.

Results

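The genes described here were 40 genes of cholesterol and fatty acid metabolism, out of 60728 gene identifiers measured by RNA-Seq in SK-N-BE(2), an established human neuroblastoma cell line. They were found by gene symbol in a fixed list and were divided by role into 5 efflux and liver X receptor (LXR) target genes, 5 regulators of the sterol regulatory element-binding proteins (SREBP), 18 sterol synthesis genes, 3 sterol trafficking genes and 9 fatty acid synthesis genes. The list was drawn up because ABCA1 was among the genes with the largest rises in the silenced cells. Values of ABCA1 in every comparison are therefore a description with no test, and so are the values of every listed gene in the libraries labelled shARID1A, where ABCA1 reached its largest rise.

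The cells were transduced with lentivirus carrying short hairpin RNAs (shRNA), and RNA was taken at 72 h. The 21 libraries fell into 7 conditions of 3 libraries each: a non-silencing control, named Control, 2 conditions labelled shARID1A (shARID1A.2 and shARID1A.4), 2 labelled shARID1B (shARID1B.2 and shARID1B.3) and 2 labelled shARID1A/B (shARID1A/B.2.3 and shARID1A/B.4.2). The paper used 2 different shRNAs against each gene and 2 combinations of shRNAs against both. The 2 conditions of a label are thus different shRNAs or combinations, not repeats of 1 treatment. ARID1A and ARID1B are mutually exclusive subunits of the BAF chromatin remodelling complex. All conditions came from 1 cell line, the control also carried an shRNA vector, and the labels do not say whether the 3 libraries of a condition came from separate transductions, so p-values measure the spread between these libraries, which may be technical. Each library held between 27954334 and 41077638 recovered reads (median 34973565).

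The silenced genes did not follow the labels. In the libraries labelled shARID1A both transcripts were low, with ARID1A at 34.0% (shARID1A.2) and 35.5% (shARID1A.4) of the control mean and ARID1B at 38.7% and 53.5%. In the libraries labelled shARID1B it was ARID1A that was low, at 30.4% (shARID1B.2) and 39.3% (shARID1B.3), while ARID1B was at 86.3% and 105%. In the libraries labelled shARID1A/B it was ARID1B that was low, at 44.8% (shARID1A/B.2.3) and 32.9% (shARID1A/B.4.2), while ARID1A was at 89.7% and 86.2%. Every direction below is therefore given for libraries named by their label.

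Cells hold their sterol content steady with a pair of opposing transcription programmes. When sterols in the endoplasmic reticulum run low, SCAP escorts the SREBP precursors to the Golgi, where proteases release the part that enters the nucleus and switches on cholesterol and fatty acid synthesis; INSIG proteins hold the SCAP complex back when sterols are plentiful. When oxysterols accumulate, LXR bound to a retinoid X receptor switches on genes that export sterol, among them the transporters ABCA1 and ABCG1. In nervous tissue sterol is made locally, and lipoprotein particles built on apolipoprotein E carry it between cells.

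The start regions of 5 genes are shown because the results turn on them: ABCA1, whose rise led to the list, the feedback genes INSIG1 and SREBF2, and STARD4 and DHCR7, which moved far in opposite conditions. The sequences are the 250 bases before the RefSeq start site, written 5′ to 3′ on the gene's strand from assembly GRCh38.p14. ABCA1 is at chr9:104928156-104928405 on the minus strand, INSIG1 at chr7:155297628-155297877 on the plus strand, SREBF2 at chr22:41832855-41833104 on the plus strand, STARD4 at chr5:111512536-111512785 on the minus strand, and DHCR7, of which the first of the RefSeq windows is shown, at chr11:71448394-71448643 on the minus strand. Capitals mark matches on either strand to 3 motifs, namely an SREBP site written TCANNCCAC, an LXR site of 2 direct repeats known as DR4, and the CCAAT box.
ABCA1: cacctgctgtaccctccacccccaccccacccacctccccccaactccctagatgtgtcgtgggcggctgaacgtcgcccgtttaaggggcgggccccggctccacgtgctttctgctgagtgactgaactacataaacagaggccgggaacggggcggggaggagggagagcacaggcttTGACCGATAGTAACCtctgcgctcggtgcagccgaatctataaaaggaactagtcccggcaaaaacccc
INSIG1: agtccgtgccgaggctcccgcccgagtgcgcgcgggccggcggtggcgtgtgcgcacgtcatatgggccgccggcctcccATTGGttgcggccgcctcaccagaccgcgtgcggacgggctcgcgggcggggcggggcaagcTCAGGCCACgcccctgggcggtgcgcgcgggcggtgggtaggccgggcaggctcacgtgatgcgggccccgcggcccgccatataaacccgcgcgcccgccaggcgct
SREBF2: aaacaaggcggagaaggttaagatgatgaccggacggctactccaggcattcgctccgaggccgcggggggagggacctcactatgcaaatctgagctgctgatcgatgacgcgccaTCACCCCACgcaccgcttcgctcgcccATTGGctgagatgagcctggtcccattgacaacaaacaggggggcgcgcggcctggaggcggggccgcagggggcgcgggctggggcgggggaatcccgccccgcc
STARD4: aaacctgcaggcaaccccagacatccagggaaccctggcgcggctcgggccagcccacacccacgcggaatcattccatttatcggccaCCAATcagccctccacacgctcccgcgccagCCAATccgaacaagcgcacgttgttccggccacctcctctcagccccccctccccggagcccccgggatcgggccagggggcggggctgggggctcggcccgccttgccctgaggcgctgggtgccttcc
DHCR7: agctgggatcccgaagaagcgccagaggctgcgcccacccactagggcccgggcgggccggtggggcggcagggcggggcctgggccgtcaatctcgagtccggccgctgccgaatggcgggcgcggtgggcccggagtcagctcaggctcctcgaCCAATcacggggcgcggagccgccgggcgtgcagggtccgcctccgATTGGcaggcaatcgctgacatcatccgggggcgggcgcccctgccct

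RefSeq windows from 250 bases before to 50 after the start were held for 35 of the 40 genes. The DR4 letters matched in 1 of the 35, ABCA1, against 0.3% of the 27305 genes with a window. The match starts 69 bases before the start site on the opposite strand. These letters leave open a base of the first repeat at which the ABCA1 site differs from its second repeat. Its match is therefore a description, and the share of all genes is no test of it. The SREBP letters matched in 3 of the 35 (INSIG1, SREBF2 and ACLY), or 8.57%, against 4.74% of all genes. A CCAAT box was in 26 of the 35 windows, or 74.3%, and in 13 of the 15 sterol synthesis genes with a window, against 39.7% of all genes. These are matches of letters only, and binding was not measured.

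All 40 genes passed the filter on low counts, which left 18584 genes in the test. Each deposited value is a read count divided by 1 size factor per library, called the normalised read count below. Differences are log2 fold changes of that value plus 1, taken from limma fitted over the 7 conditions, and a gene is called when its p-value adjusted over all genes tested is under 0.05. The comparisons with Control all use the same 3 control libraries.

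Calls were common among all genes, so the counts of the 40 are given beside them. In shARID1A.2, 13 of the 40 were called higher and 25 lower, where 37.9% and 38.2% of all genes were. In shARID1A.4, 10 were called higher and 23 lower, where 37% and 36.6% of all genes were. In either direction 76.1% and 73.6% of all genes were called. Nothing is read from these counts, as the rise of ABCA1 in these libraries led to the list.

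In shARID1B.2, 10 were called higher and 27 lower, beside 31.6% and 34% of all genes. In shARID1B.3 the counts were 10 and 24 (31.9% and 32% of all genes), in shARID1A/B.2.3 they were 9 and 25 (35.2% and 34%), and in shARID1A/B.4.2 they were 11 and 23 (35.1% and 36.1%). In either direction 65.6%, 63.9%, 69.2% and 71.2% of all genes were called in these 4 conditions, beside 37, 34, 34 and 34 of the 40. More of the 40 genes were thus called lower than higher in each of these 4 conditions, where all genes were split about evenly. The counts called higher include ABCA1, which has no test of its own, in every condition except shARID1B.3. The split depended on scaling: with values scaled to total reads it was 13 higher and 20 lower in shARID1A.2, 13 and 22 in shARID1B.2 and 19 and 17 in shARID1A/B.4.2, and with upper-quartile scaling it was 16 and 19, 13 and 22 and 19 and 18, and 16 and 21 in shARID1A.4.

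**Figure D1:**
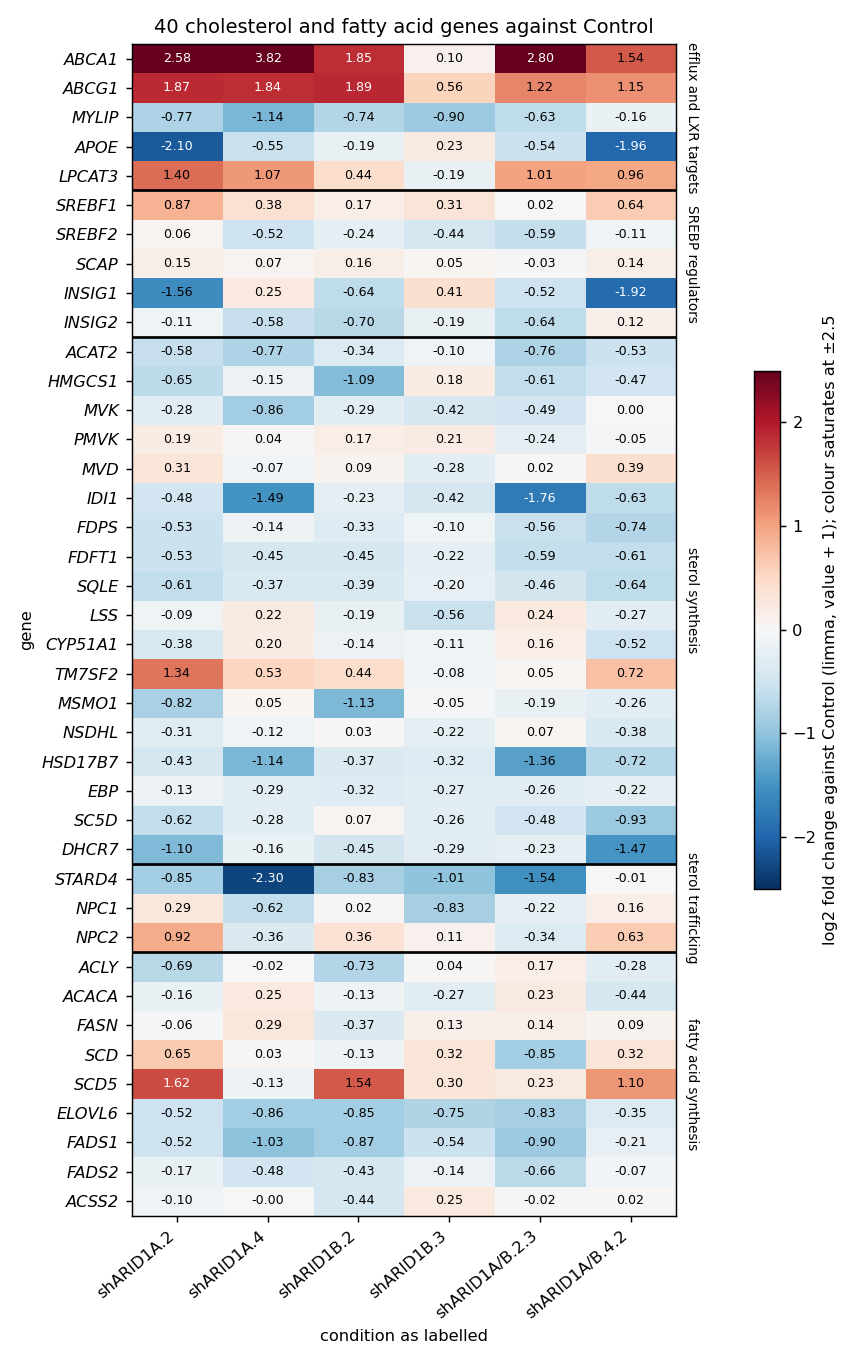
Log2 fold change of the 40 genes (rows, grouped by role) in the 6 silenced conditions (columns, as labelled) against the 3 control libraries, from limma on log2(normalised read count + 1), with the value printed in each cell and colour saturating at ±2.5. ABCA1 and ABCG1 are above 0 in all 6 columns, most sterol synthesis rows are below 0, and APOE, INSIG1 and DHCR7 are lowest in shARID1A.2 and shARID1A/B.4.2.

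ABCA1, the transporter that passes cholesterol to apolipoprotein A-I, had few reads in the control and many more in most silenced cells. Its normalised read count was 35.2, 20.1 and 36.0 in the control libraries, from 30, 18 and 35 reads. It was 155, 210 and 184 in shARID1A.2 and 401, 445 and 442 in shARID1A.4. These 6 libraries all lay above the control libraries, and those of shARID1A.4 lay above those of every other condition.
The libraries labelled shARID1B differed from each other, with ABCA1 at 109, 101 and 118 in shARID1B.2 and 32.9, 32.3 and 30.2 in shARID1B.3. It was at 198, 217 and 220 in shARID1A/B.2.3 and at 109, 72.6 and 85.2 in shARID1A/B.4.2. Only shARID1B.3 overlapped the control. Its 3 values fell inside the control's range. As log2 fold changes, ABCA1 stood at 2.58 in shARID1A.2, 3.82 in shARID1A.4, 1.85 in shARID1B.2, 0.10 in shARID1B.3, 2.80 in shARID1A/B.2.3 and 1.54 in shARID1A/B.4.2, each with a standard error of 0.17.

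ABCG1, the transporter that passes cholesterol to high-density lipoprotein, was higher in all silenced conditions. The control libraries held 117, 146 and 144. The counts were 482, 502 and 502 in shARID1A.2, 496, 483 and 480 in shARID1A.4, and 520, 508 and 485 in shARID1B.2. Cells labelled shARID1B.3 held 218, 181 and 201, those labelled shARID1A/B.2.3 held 342, 297 and 307, and those labelled shARID1A/B.4.2 held 332, 257 and 318. No silenced library overlapped the control, and shARID1B.3 stayed closest to it.
ABCG1 rose by a log2 fold change of 1.89 in shARID1B.2 (adjusted p = 2.84e-15), 0.56 in shARID1B.3 (adjusted p = 8.00e-06), 1.22 in shARID1A/B.2.3 (adjusted p = 1.07e-11) and 1.15 in shARID1A/B.4.2 (adjusted p = 3.12e-11). Without a test, it stood at 1.87 in shARID1A.2 and 1.84 in shARID1A.4. Within the label shARID1A/B, ABCG1 differed by 0.07 on the log2 scale (95% interval -0.12 to 0.25), where ABCA1 differed by 1.26, given with no test.

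LPCAT3, an LXR target that builds polyunsaturated phospholipids, had 450, 456 and 453 normalised reads in the control. It had 1197, 1203 and 1185 in shARID1A.2, 895, 991 and 981 in shARID1A.4, 910, 883 and 951 in shARID1A/B.2.3, and 880, 881 and 879 in shARID1A/B.4.2. In the libraries labelled shARID1B it had 642, 592 and 612 (shARID1B.2) and 437, 356 and 403 (shARID1B.3). Only the shARID1B.3 libraries lay below the control, and the other 15 silenced libraries lay above it.
It rose in shARID1B.2 (log2 fold change 0.44, adjusted p = 1.61e-07), shARID1A/B.2.3 (1.01, adjusted p = 2.47e-14) and shARID1A/B.4.2 (0.96, adjusted p = 7.24e-14), and fell in shARID1B.3 by 0.19 (adjusted p = 0.00481). That fall rested on 1 library, since without the second shARID1B.3 library it was -0.11 with an adjusted p of 0.0668.

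MYLIP and APOE, which are also LXR targets, were lower in most silenced conditions. MYLIP encodes a ubiquitin ligase that removes lipoprotein receptors from the cell surface. Its normalised read count was 446, 440 and 456 in the control, 258, 252 and 273 in shARID1A.2, 212, 187 and 210 in shARID1A.4, 267, 248 and 292 in shARID1B.2, and 248, 235 and 233 in shARID1B.3. It was 304, 290 and 274 in shARID1A/B.2.3 and 390, 387 and 422 in shARID1A/B.4.2. All 18 silenced libraries lay below the control.
MYLIP fell by 0.74 in shARID1B.2 (adjusted p = 1.25e-09), by 0.90 in shARID1B.3 (adjusted p = 3.18e-11), by 0.63 in shARID1A/B.2.3 (adjusted p = 1.60e-08) and by 0.16 in shARID1A/B.4.2 (adjusted p = 0.0399). That last call was lost when any 1 of the 3 control libraries, or the first or second shARID1A/B.4.2 library, was left out (adjusted p from 0.0551 to 0.121), and with values scaled to total reads it was 0.024 and not called.

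APOE encodes the apolipoprotein that neural cells load with exported sterol. It was 588, 625 and 591 in the control, 150, 129 and 141 in shARID1A.2, and 428, 402 and 403 in shARID1A.4. It was 508, 507 and 573 in shARID1B.2, 745, 714 and 661 in shARID1B.3, 401, 418 and 421 in shARID1A/B.2.3, and 140, 165 and 156 in shARID1A/B.4.2. The lowest libraries were thus those of shARID1A.2 and shARID1A/B.4.2, which lay far below every other library, and the shARID1B.3 libraries alone lay above the control.
APOE fell by 1.96 in shARID1A/B.4.2 (adjusted p = 4.47e-18), by 0.54 in shARID1A/B.2.3 (adjusted p = 2.25e-07) and by 0.19 in shARID1B.2 (adjusted p = 0.0229), and rose by 0.23 in shARID1B.3 (adjusted p = 0.00577). In shARID1B.2 the call was lost without the second control library, or without the first or the second shARID1B.2 library (-0.16 in each case, adjusted p = 0.0875, 0.0896 and 0.0908). Of the 5 genes of the list, ABCA1, ABCG1 and LPCAT3 were on the higher side and MYLIP and APOE on the lower side in all conditions except shARID1B.3.

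**Figure D2:**
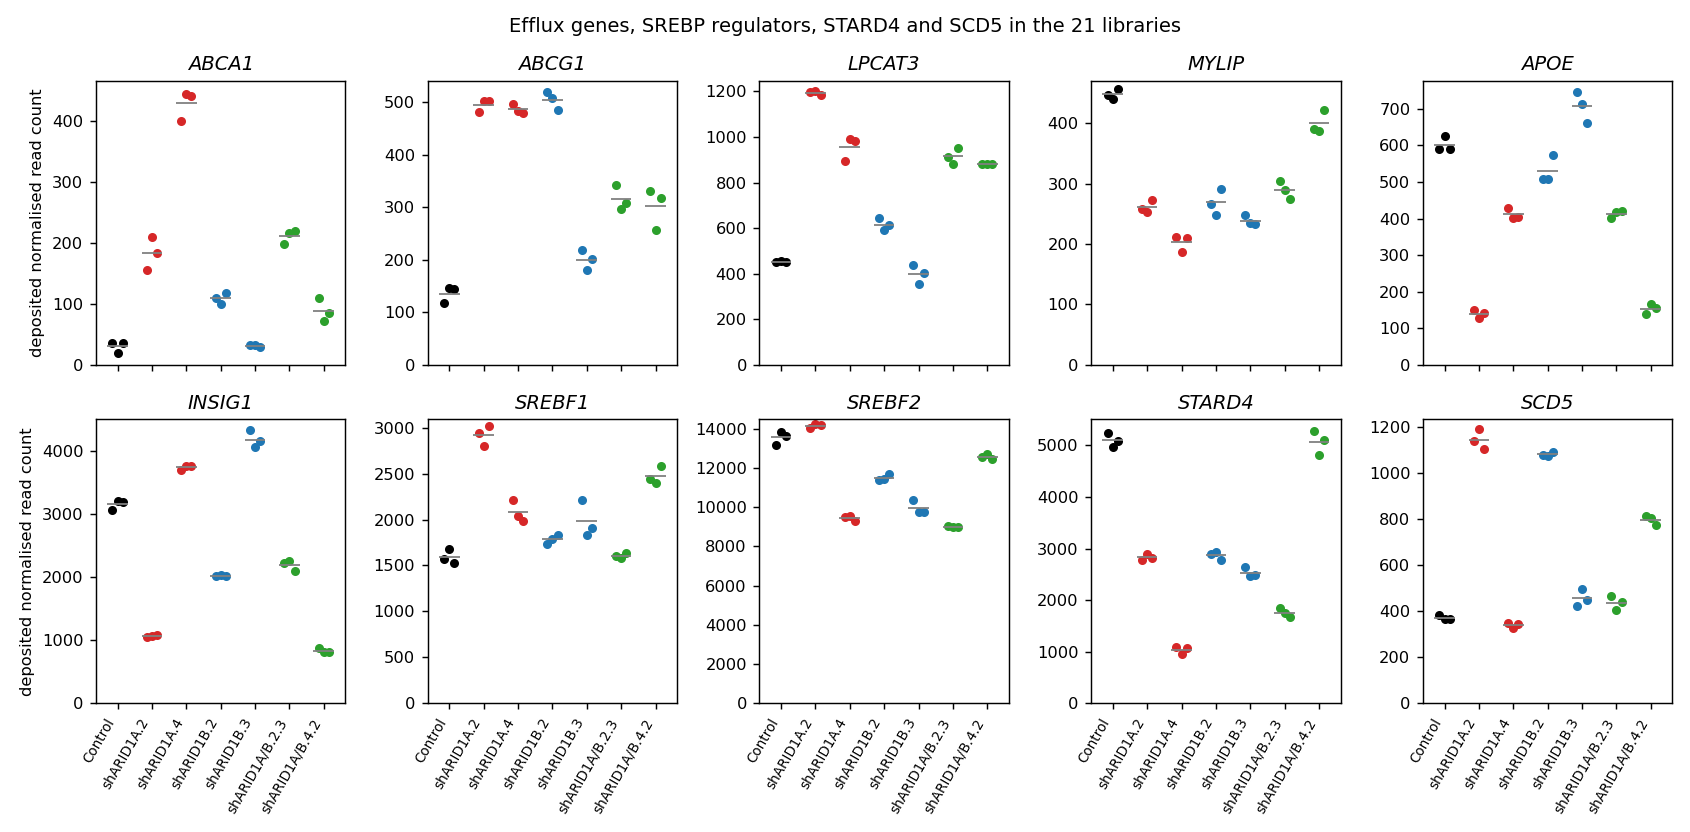
Normalised read count (linear axis from 0) of the 5 efflux and LXR target genes, 3 SREBP regulators, STARD4 and SCD5 in the 21 libraries, with 1 point for each library and a line at the mean of the 3 libraries of a condition. The points of a condition lie close together, and the 2 conditions of a label often lie far apart, as for INSIG1 and STARD4.

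Among the SREBP regulators, INSIG1 differed most between conditions. INSIG1 encodes a protein that retains the SCAP complex in the endoplasmic reticulum and is itself an SREBP target. Its normalised read count was 3064, 3203 and 3195 in the control, 1049, 1065 and 1084 in shARID1A.2, and 3691, 3763 and 3766 in shARID1A.4. It was 2016, 2032 and 2011 in shARID1B.2 and 4324, 4058 and 4157 in shARID1B.3. It was 2231, 2250 and 2099 in shARID1A/B.2.3 and 877, 817 and 807 in shARID1A/B.4.2.
No silenced library overlapped the control, with 12 libraries below it and 6 above it, and the 2 conditions labelled shARID1A lay on opposite sides, as did the 2 labelled shARID1B. INSIG1 fell by 1.92 in shARID1A/B.4.2 (adjusted p = 2.73e-24), by 0.64 in shARID1B.2 (adjusted p = 1.53e-14) and by 0.52 in shARID1A/B.2.3 (adjusted p = 5.53e-13), and rose by 0.41 in shARID1B.3 (adjusted p = 1.21e-10).

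SREBF2, which encodes the SREBP that drives sterol synthesis, had 13187, 13836 and 13613 in the control and 14027, 14207 and 14162 in shARID1A.2. It had 9473, 9550 and 9285 in shARID1A.4, 11355, 11448 and 11695 in shARID1B.2, and 10345, 9771 and 9748 in shARID1B.3. It had 9011, 9004 and 8962 in shARID1A/B.2.3 and 12525, 12707 and 12464 in shARID1A/B.4.2. Libraries of shARID1A.2 lay just above the control, and those of the other 5 conditions lay below it.
SREBF2 fell by 0.59 in shARID1A/B.2.3 (adjusted p = 1.76e-17), by 0.44 in shARID1B.3 (adjusted p = 9.78e-15), by 0.24 in shARID1B.2 (adjusted p = 1.47e-09) and by 0.11 in shARID1A/B.4.2 (adjusted p = 0.000153). The small fall in shARID1A/B.4.2 turned to a called rise of 0.079 with scaling to total reads (adjusted p = 0.00435) and of 0.054 with upper-quartile scaling (adjusted p = 0.0385).

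SREBF1 encodes the SREBP isoforms that mainly drive fatty acid synthesis, and is also an LXR target. It had 1567, 1684 and 1524 in the control, 2940, 2799 and 3016 in shARID1A.2, and 2211, 2042 and 1984 in shARID1A.4. It had 1736, 1793 and 1834 in shARID1B.2, 2216, 1829 and 1907 in shARID1B.3, 1607, 1579 and 1638 in shARID1A/B.2.3, and 2445, 2392 and 2579 in shARID1A/B.4.2. Libraries of shARID1A/B.2.3 overlapped the control, and all other silenced libraries lay above it.
SREBF1 rose by 0.64 in shARID1A/B.4.2 (adjusted p = 1.16e-10), 0.31 in shARID1B.3 (adjusted p = 1.64e-05) and 0.17 in shARID1B.2 (adjusted p = 0.00806). In shARID1A/B.2.3 the difference was 0.02, with a 95% interval of -0.10 to 0.13.

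INSIG2, which encodes the second retention protein, had 754, 704 and 803 in the control, 658, 761 and 676 in shARID1A.2, and 473, 529 and 506 in shARID1A.4. It had 455, 468 and 463 in shARID1B.2, 632, 664 and 685 in shARID1B.3, 473, 482 and 489 in shARID1A/B.2.3, and 791, 835 and 832 in shARID1A/B.4.2. The libraries of shARID1A.2 and shARID1A/B.4.2 overlapped the control, and the other 12 silenced libraries lay below it. It fell by 0.70 in shARID1B.2 (adjusted p = 6.39e-11), by 0.64 in shARID1A/B.2.3 (adjusted p = 2.49e-10) and by 0.19 in shARID1B.3 (adjusted p = 0.00526). In shARID1A/B.4.2 it was at 0.12, with an adjusted p of 0.0582.

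SCAP, the escort of the SREBP precursors, moved least of the 5 regulators. It had 1870, 1904 and 1929 in the control, 2162, 2065 and 2105 in shARID1A.2, 2021, 1984 and 1972 in shARID1A.4, and 2059, 2087 and 2208 in shARID1B.2. It had 2106, 1916 and 1894 in shARID1B.3, 1802, 1869 and 1923 in shARID1A/B.2.3, and 1965, 2190 and 2143 in shARID1A/B.4.2. Its log2 fold changes lay between -0.03 and 0.16, and it rose in shARID1B.2 (0.16, adjusted p = 0.00183) and shARID1A/B.4.2 (0.14, adjusted p = 0.00351).

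The sterol synthesis genes were lower in most cases. Of the 18, 15 were called lower and 3 higher in shARID1A.2, and 12 and 3 in shARID1A.4. In the conditions that can be tested, 13 fell and 3 rose in shARID1B.2, 14 fell and 2 rose in shARID1B.3, 13 fell and 2 rose in shARID1A/B.2.3, and 14 fell and 2 rose in shARID1A/B.4.2. Of all genes, 38.2%, 36.6%, 34%, 32%, 34% and 36.1% were called lower in these 6 conditions in that order. The shares called higher were 37.9%, 37%, 31.6%, 31.9%, 35.2% and 35.1%. The median log2 fold change of the list was -0.46, -0.16, -0.31, -0.22, -0.36 and -0.50 in the same order of conditions, beside a median over all genes of 0.01 to 0.02. It stayed below 0 under each scaling tried, at its nearest to 0 with -0.07 in shARID1A.4 under upper-quartile scaling.

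A core of the pathway was lower in every condition, namely ACAT2, IDI1, FDPS, FDFT1, SQLE, HSD17B7, EBP and DHCR7, except that EBP turned to 0.057 in shARID1A.2 under upper-quartile scaling and to 0.047 under scaling to total reads. ACAT2 makes acetoacetyl-CoA at the head of the pathway, IDI1 isomerises the isoprene unit, FDPS and FDFT1 join these units, and SQLE begins the sterol part. FDFT1 differed little between conditions, with a fall of 0.22 to 0.61 in the 4 conditions tested. SQLE fell by 0.20 to 0.64 in these conditions.
IDI1 showed the widest range. It had 4693, 4608 and 4675 normalised reads in the control and 1417, 1318 and 1395 in shARID1A/B.2.3, a fall of 1.76 on the log2 scale (adjusted p = 7.83e-25). It fell by 0.63 in shARID1A/B.4.2 (adjusted p = 4.05e-16) and by 0.23 in shARID1B.2 (adjusted p = 1.14e-07). In shARID1A.4 it had 1649, 1643 and 1689, and in shARID1A.2 3430, 3322 and 3279. IDI1 was thus lowest in shARID1A/B.2.3 and shARID1A.4.

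DHCR7, the enzyme of the last step of one branch, had the opposite order. It had 4402, 4377 and 4384 in the control, 1644, 1587 and 1526 in shARID1A/B.4.2 and 3789, 3637 and 3779 in shARID1A/B.2.3. It fell by 1.47 in shARID1A/B.4.2 (adjusted p = 1.80e-22) and by 0.23 in shARID1A/B.2.3 (adjusted p = 4.80e-07). In shARID1A.2 it had 1990, 2060 and 2081, and in shARID1A.4 3995, 4026 and 3785. Enzymes of the same pathway thus reached their lowest values in different conditions.

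HMGCS1, the synthase that makes HMG-CoA, and MSMO1, a sterol demethylase, fell most in shARID1B.2, by 1.09 (adjusted p = 2.52e-23) and 1.13 (adjusted p = 2.44e-20). HMGCS1 had 15845, 15356 and 15548 in the control, 7354, 7370 and 7201 in shARID1B.2 and 17701, 17467 and 17688 in shARID1B.3, where it rose by 0.18 (adjusted p = 3.92e-08). TM7SF2, a sterol reductase, went against most of the list. It had 496, 523 and 515 in the control, 1283, 1323 and 1282 in shARID1A.2, and rose by 0.72 in shARID1A/B.4.2 (adjusted p = 1.04e-10) and 0.44 in shARID1B.2 (adjusted p = 6.00e-07).

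STARD4, a carrier of cholesterol between membranes that is known as an SREBP target, was the trafficking gene that moved most. It had 5242, 4978 and 5081 in the control, 2786, 2890 and 2810 in shARID1A.2, and 1087, 957 and 1074 in shARID1A.4. It had 2889, 2939 and 2776 in shARID1B.2, 2651, 2460 and 2492 in shARID1B.3, 1839, 1754 and 1681 in shARID1A/B.2.3, and 5291, 4816 and 5099 in shARID1A/B.4.2. Only shARID1A/B.4.2 overlapped the control, and the other 15 silenced libraries lay below it.
STARD4 fell by 1.54 in shARID1A/B.2.3 (adjusted p = 5.18e-20), by 1.01 in shARID1B.3 (adjusted p = 4.41e-16) and by 0.83 in shARID1B.2 (adjusted p = 1.89e-14). In shARID1A/B.4.2 it differed by -0.01, with a 95% interval of -0.10 to 0.08. NPC1 and NPC2 move cholesterol out of lysosomes, and both were higher in shARID1A.2 and shARID1A/B.4.2 and lower in shARID1A.4 and shARID1A/B.2.3. In the conditions tested, NPC2 rose by 0.63 in shARID1A/B.4.2 (adjusted p = 2.79e-07) and fell by 0.34 in shARID1A/B.2.3 (adjusted p = 0.000707).

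Of the 9 fatty acid synthesis genes, 8 fell and 1 rose in shARID1B.2, and 4 fell and 4 rose in shARID1B.3. In shARID1A/B.2.3, 4 fell and 4 rose, and in shARID1A/B.4.2, 5 fell and 2 rose. The counts called lower and higher were 6 and 2 in shARID1A.2 and 4 and 2 in shARID1A.4. Over the 6 conditions, 32% to 38.2% of all genes were called lower and 31.6% to 37.9% higher. In either direction it was 63.9% to 76.1% of all genes. The list's median lay between -0.43 in shARID1B.2 and 0.04 in shARID1B.3, and its sign changed with scaling in shARID1A.2, shARID1A.4, shARID1A/B.2.3 and shARID1A/B.4.2.

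ELOVL6, which lengthens saturated chains, and the desaturases FADS1 and FADS2 were lower in every condition, except that FADS2 turned to the higher side in shARID1A.2 and shARID1A/B.4.2 under upper-quartile scaling and scaling to total reads. ELOVL6 fell by 0.85 in shARID1B.2, by 0.75 in shARID1B.3, by 0.83 in shARID1A/B.2.3 and by 0.35 in shARID1A/B.4.2. FADS1 fell by 0.87, 0.54, 0.90 and 0.21 in the same conditions. All 8 falls were called, with a largest adjusted p of 1.11e-08. SCD, the main stearoyl-CoA desaturase, moved both ways. It had 47488, 48877 and 48129 in the control, 27343, 26346 and 26728 in shARID1A/B.2.3 (a fall of 0.85, adjusted p = 6.88e-18) and 62738, 57771 and 60097 in shARID1A/B.4.2 (a rise of 0.32, adjusted p = 1.21e-09).

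SCD5, a second desaturase found mainly in brain and pancreas, rose where SCD did not always do so. It had 382, 367 and 366 in the control, 1141, 1191 and 1105 in shARID1A.2, and 349, 327 and 343 in shARID1A.4. It had 1078, 1074 and 1094 in shARID1B.2, 424, 497 and 451 in shARID1B.3, 467, 403 and 439 in shARID1A/B.2.3, and 814, 804 and 775 in shARID1A/B.4.2. Libraries of shARID1A.4 lay just below the control and all the others above it.
SCD5 rose by 1.54 in shARID1B.2 (adjusted p = 1.15e-17), 1.10 in shARID1A/B.4.2 (adjusted p = 5.34e-15), 0.30 in shARID1B.3 (adjusted p = 5.76e-05) and 0.23 in shARID1A/B.2.3 (adjusted p = 0.000812). The remaining genes of the list, ACLY and ACSS2, which make acetyl-CoA, and ACACA and FASN, which make palmitate from it, had log2 fold changes between -0.73 and 0.29.

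The efflux and sterol synthesis lists were set side by side in each library, as the median difference of each list from the control mean. The median of the efflux list was 1.40 in shARID1A.2, 1.07 in shARID1A.4, 0.44 in shARID1B.2, 0.10 in shARID1B.3, 1.01 in shARID1A/B.2.3 and 0.96 in shARID1A/B.4.2. The efflux median exceeded the sterol median by 1.85 (SD 0.02 over the 3 libraries), 1.23 (SD 0.08), 0.75 (SD 0.07), 0.33 (SD 0.09), 1.38 (SD 0.02) and 1.46 (SD 0.01) in the same order. The efflux list includes ABCA1, the gene that led to the list, so these gaps are a description. With ABCA1 taken out, the median of the other 4 efflux genes was 0.31, 0.26, 0.13, 0.02, 0.24 and 0.40, and the gap was 0.77 (SD 0.03), 0.42 (SD 0.01), 0.43 (SD 0.06), 0.24 (SD 0.11), 0.60 (SD 0.02) and 0.90 (SD 0.04), again in that order. The efflux median lay above the sterol median in all 18 silenced libraries with ABCA1 and in 18 without it. Of the 4 genes left without ABCA1, 2 were above and 2 below the control in every condition. Their median is thus the midpoint between a higher and a lower gene. The gap without ABCA1 also holds the lower sterol median, and is not a rise shared by the efflux genes. The full efflux list holds 5 genes, 2 of which were lower in most conditions, and in 5 of the 6 conditions its median is the value of LPCAT3, so the gap describes single genes as much as a list. In shARID1B.3 the gap fell to 0.067 without the second control library and was 0.45 without the third, since ABCA1 is the median gene there.

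**Figure D3:**
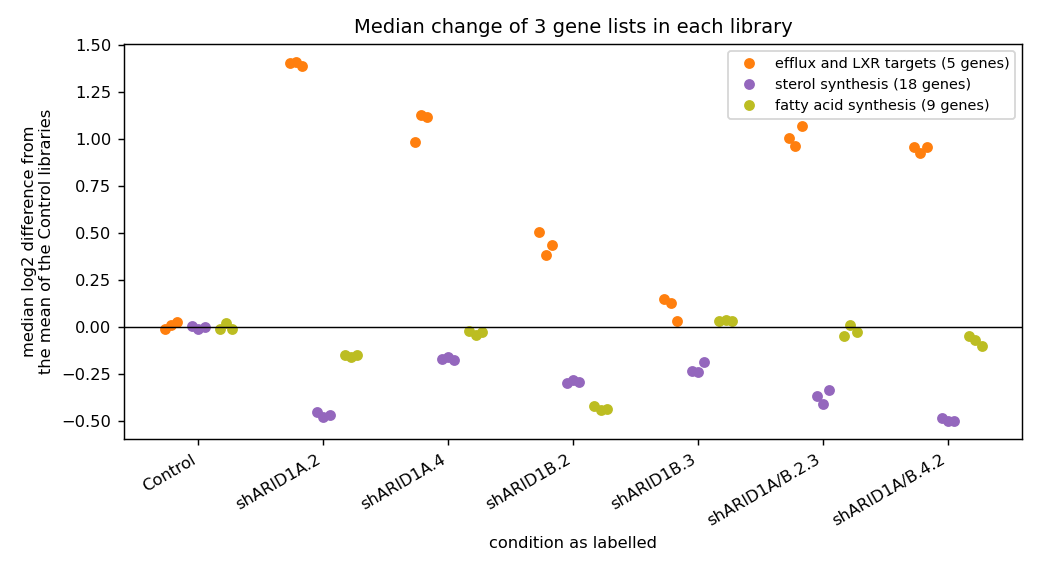
Median log2 difference from the mean of the control libraries over the efflux and LXR target genes (5), the sterol synthesis genes (18) and the fatty acid synthesis genes (9), with 1 point for each list and library. The efflux points, which include ABCA1, lie above the sterol points in all 18 silenced libraries, and the gap is smallest in shARID1B.3.

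The libraries labelled shARID1A/B, in which ARID1B is low, were also set directly against those labelled shARID1B, in which ARID1A is low. This comparison holds no control library and no library labelled shARID1A. Of the 40 genes, 17 were higher, ABCA1 among them, and 16 lower in the libraries labelled shARID1A/B, where 35.1% and 35% of all genes were (70.2% in either direction). ABCA1 was higher by 1.19 on the log2 scale, given with no test, and the shARID1A/B.4.2 and shARID1B.2 libraries overlapped. LPCAT3 was higher by 0.86 (adjusted p = 5.70e-16) and MYLIP by 0.42 (adjusted p = 3.27e-08). The libraries of the 2 labels did not overlap for LPCAT3, while for MYLIP those of shARID1A/B.2.3 and shARID1B.2 did. ABCG1 differed by -0.04, with an interval of -0.18 to 0.09.
On the other side, APOE was lower by 1.27 (adjusted p = 2.33e-17) and INSIG1 by 1.10 (adjusted p = 2.24e-22). APOE did not overlap between the labels, but INSIG1 did, since its shARID1A/B.2.3 libraries lay above those of shARID1B.2. Of the 18 sterol synthesis genes, 11 were lower and 5 higher, with IDI1 lower by 0.87, HSD17B7 by 0.70 and SC5D by 0.61 (largest adjusted p = 3.28e-12). These 3 genes did not overlap between the labels. LSS and MSMO1 were higher, by 0.36 and 0.37, but LSS was lower in shARID1A/B.4.2 than in shARID1B.2, and MSMO1 was lower in both shARID1A/B conditions than in shARID1B.3. Of the 9 fatty acid synthesis genes 6 were higher and 3 lower, with SCD lower by 0.35. The libraries of the 2 labels overlapped for SCD: shARID1A/B.2.3 lay below all 6 libraries labelled shARID1B, while shARID1A/B.4.2 lay above shARID1B.2 and overlapped shARID1B.3. When the 4 label groups were fitted without separating the 2 conditions in each, 14 of the 40 genes were called in this comparison in place of 33, as the spread between conditions then counts as error.

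**Figure D4:**
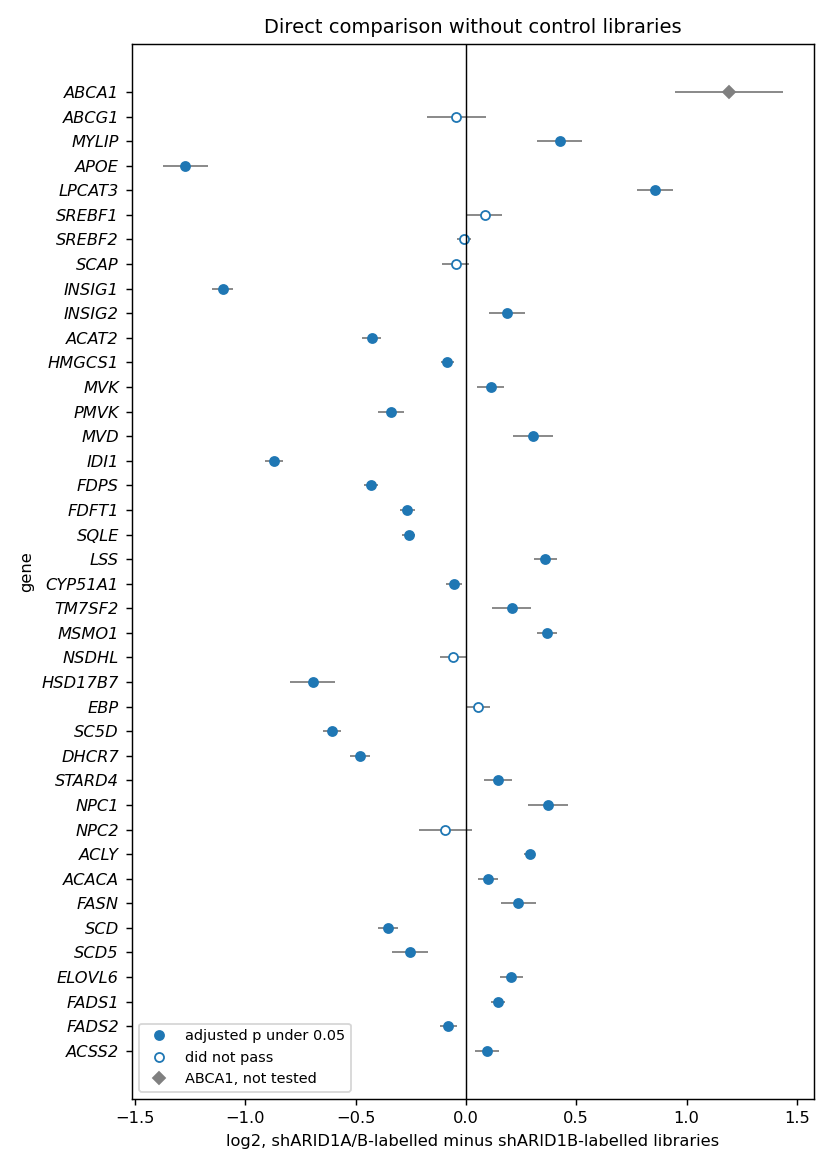
Log2 difference of the 40 genes between the 6 libraries labelled shARID1A/B and the 6 labelled shARID1B, from limma, with bars for the 95% interval. Filled circles mark an adjusted p-value under 0.05 and a grey diamond marks ABCA1, which was not tested and whose bar is a description only. ABCA1 and LPCAT3 are farthest to the right, and APOE, INSIG1 and IDI1 farthest to the left.

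The 2 conditions that share a label differed from each other in most of the 40 genes. Between shARID1A.2 and shARID1A.4, 21 genes were higher and 17 lower in shARID1A.2 (38.4% and 37.3% of all genes, 75.8% in either direction). Between shARID1B.2 and shARID1B.3, 18 were higher and 18 lower in shARID1B.2 (33% and 33%, 66% in either direction). Between shARID1A/B.2.3 and shARID1A/B.4.2, 13 were higher and 21 lower in shARID1A/B.2.3 (37.1% and 37.8%, 74.9% in either direction). ABCA1 was higher by 1.75 in shARID1B.2 than in shARID1B.3 and by 1.26 in shARID1A/B.2.3 than in shARID1A/B.4.2, both given with no test. Against Control, 8 of the 40 genes were called in opposite directions by the 2 conditions labelled shARID1A (17.1% of all genes), 8 by those labelled shARID1B (14.5%) and 7 by those labelled shARID1A/B (18.5%).

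The differences within the label shARID1A and within the label shARID1A/B had opposite signs for 36 of the 40 genes. These 2 comparisons share no library, but they may share shRNAs. By the numbers in the labels, shARID1A/B.2.3 would hold the shRNA of shARID1A.2, and shARID1A/B.4.2 that of shARID1A.4. The labels do not state this. Over the 40 genes the log2 difference of shARID1A.2 from shARID1A.4 and that of shARID1A/B.2.3 from shARID1A/B.4.2 had a Pearson correlation of -0.92 and a Spearman correlation of -0.93, and over all 18584 genes they had -0.79 and -0.78. The signs were opposite for 80.7% of all genes. The correlations are across genes of the same libraries, which are not independent replicates, and they describe these libraries only. INSIG1 was lower by 1.81 in shARID1A.2 than in shARID1A.4, and higher by 1.39 in shARID1A/B.2.3 than in shARID1A/B.4.2 (adjusted p = 1.19e-21). STARD4 had the reverse order, with 1.45 and -1.53 (adjusted p = 4.06e-20 for the latter). For these genes shARID1A.2 thus stood with shARID1A/B.4.2 and shARID1A.4 with shARID1A/B.2.3, the reverse of the pairing by number. Within the label shARID1B the differences had a Pearson correlation of 0.35 with those within shARID1A and -0.06 with those within shARID1A/B over the 40 genes.

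**Figure D5:**
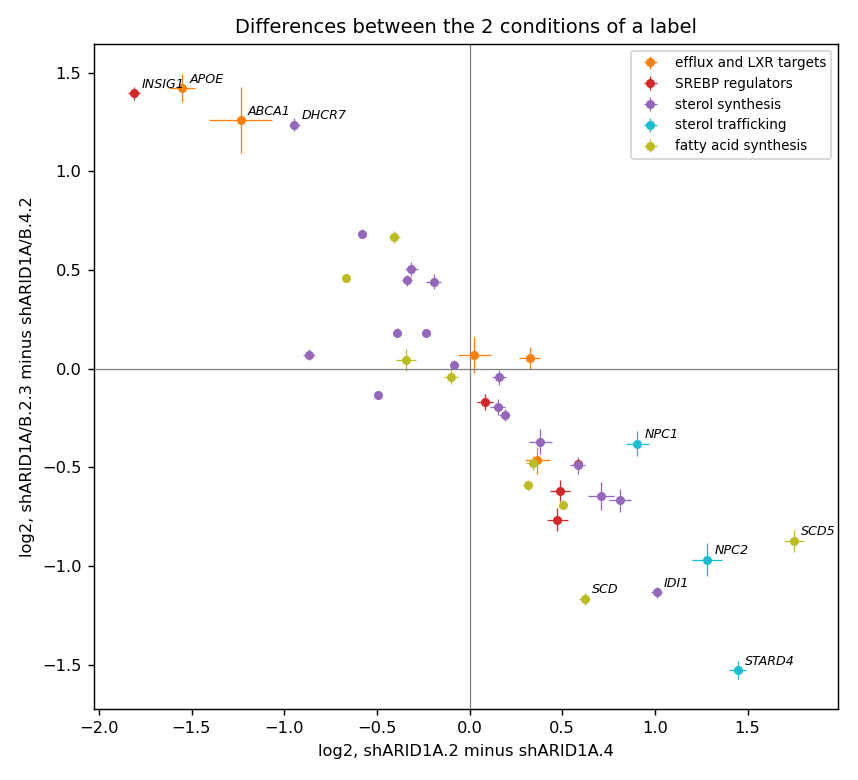
Log2 difference between the 2 conditions labelled shARID1A (horizontal) and between the 2 labelled shARID1A/B (vertical) for the 40 genes, coloured by role, with bars for the standard error from limma. The points run from the upper left, with INSIG1, APOE, ABCA1 and DHCR7, to the lower right, with STARD4, SCD5, NPC2, SCD and IDI1.

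Other genes of these pathways were counted from lists kept apart from the 40. Their counts stand beside the shares of all genes called higher and lower, which were 31.6% and 34% in shARID1B.2, 31.9% and 32% in shARID1B.3, 35.2% and 34% in shARID1A/B.2.3, and 35.1% and 36.1% in shARID1A/B.4.2. NR1H2 encodes LXR-beta, the broadly expressed LXR. It had 412, 463 and 404 in the control and lay between 710 and 1218 in the 18 silenced libraries, all above the control. NR1H2 rose by 1.21 in shARID1B.2 (adjusted p = 2.16e-15), 1.40 in shARID1B.3 (adjusted p = 1.34e-16), 0.75 in shARID1A/B.2.3 (adjusted p = 1.84e-11) and 1.19 in shARID1A/B.4.2 (adjusted p = 1.91e-15). It was thus highest in shARID1B.3, where ABCA1 was at the level of the control. Of the 6 tested genes of the LXR and RXR receptors and corepressors (7 listed), 3 rose and 3 fell in shARID1B.2, 2 and 3 in shARID1B.3, 3 and 3 in shARID1A/B.2.3, and 5 and 1 in shARID1A/B.4.2.

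Of the 6 tested genes among 7 further LXR targets, 2 rose and 3 fell in shARID1B.2, 1 and 3 in shARID1B.3, 5 and 1 in shARID1A/B.2.3, and 3 and 1 in shARID1A/B.4.2. NR1H3 is in both this list and that of the receptors, and is counted in each. In the direct comparison all 6 further LXR targets were higher under the label shARID1A/B than under shARID1B, where 35.1% of all genes were. Of the 9 SREBP proteases and further SREBP targets, 4 rose and 5 fell in shARID1B.2, 2 and 6 in shARID1B.3, 6 and 3 in shARID1A/B.2.3, and 1 and 6 in shARID1A/B.4.2.

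Of the 16 genes of sterol uptake, esters and transport, 7 rose and 6 fell in shARID1B.2, 6 and 6 in shARID1B.3, 8 and 3 in shARID1A/B.2.3, and 9 and 5 in shARID1A/B.4.2. In the direct comparison 13 of them were higher and 1 lower in the libraries labelled shARID1A/B, where 35.1% and 35% of all genes were. LRP8, a neuronal receptor for lipoproteins that carry APOE, fell by 1.20 in shARID1B.2 (adjusted p = 3.03e-14) and by 1.04 in shARID1A/B.4.2 (adjusted p = 3.40e-13), and stood at 0.03 in shARID1A/B.2.3 (adjusted p = 0.734). Its 3 values were 1449, 1668 and 1625 in the control and 809, 721 and 778 in shARID1A/B.4.2.

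Of the 3 tested genes of oxysterol and neural sterol turnover (4 listed), all rose in shARID1B.2, 2 fell in shARID1B.3, 1 rose in shARID1A/B.2.3 and 2 rose in shARID1A/B.4.2. CYP46A1, the enzyme that hydroxylates cholesterol in neurons, had at most 18.3 normalised reads in any library and was listed at 0 in all 3 libraries of shARID1A.4. Of the 14 tested among 17 further fatty acid genes, 7 rose and 5 fell in shARID1B.2, 6 and 6 in shARID1B.3, 7 and 4 in shARID1A/B.2.3, and 5 and 7 in shARID1A/B.4.2. ACACB, the mitochondrial acetyl-CoA carboxylase, rose in all 4 of these conditions, by 0.39 to 1.02 (largest adjusted p = 1.41e-07). ELOVL7, an elongase with 4.70 to 11.2 normalised reads in the control, rose by 1.34 in shARID1B.2 (adjusted p = 0.00496) and 1.37 in shARID1A/B.4.2 (adjusted p = 0.00366).

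Genes of the cell cycle moved in the same libraries. Of 10 proliferation genes, all 10 fell in shARID1B.2, shARID1A/B.2.3 and shARID1A/B.4.2 and 5 fell in shARID1B.3, with medians of -0.58, -1.34, -1.14 and -0.12. All 10 were also called lower in shARID1A.2 and shARID1A.4. Of all genes, 34% were called lower in shARID1B.2, 34% in shARID1A/B.2.3, 36.1% in shARID1A/B.4.2 and 32% in shARID1B.3. The share was 38.2% in shARID1A.2 and 36.6% in shARID1A.4. Summed over the list, the control libraries held 115426 to 116800 normalised reads. The sum was 104021 to 106326 in shARID1B.3 and 75791 to 77700 in shARID1B.2, and in the other 12 silenced libraries it was 47223 to 52668. The part of this in the lipid gene values was not tested. In bulk RNA, fewer cells of a kind and less RNA per cell cannot be told apart.

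The neuroblastoma markers were present throughout. The 8 adrenergic markers summed to 167399 to 171716 in the control and to 115084 to 470912 in the silenced libraries, and none was at 0 in any library. MYCN made up most of the sum, with 77312 to 426870 across the 21 libraries. The sum was highest in shARID1A.4 (453385 to 470912) and shARID1A/B.2.3 (258042 to 263793), the same 2 conditions that had the lowest STARD4 and IDI1. The 6 mesenchymal-state markers summed to 59918 to 62331 in the control and 36825 to 73793 in the silenced libraries, with PRRX1 at 0 in 17 of the 21 libraries. VIM made up most of this sum, with 31307 to 69666 across the 21 libraries, so the sum says little of the other markers. FN1 was called lower in all 6 silenced conditions, YAP1 in 5 and SNAI2 in 4. CD44 was called higher in 4 and lower in 2, and VIM lower in 3 and higher in 1. In these conditions 32% to 38.2% of all genes were called lower and 31.6% to 37.9% higher. The 5 leukocyte and macrophage markers summed to at most 488.9 in the control and 346.8 in any silenced library. ITGAM was at 0 in 16 of the 21 libraries, CSF1R in 3 and CD68 in 2, while PTPRC and CD14 were at 0 in none. PTPRC had 57.3 to 426 normalised reads across the 21 libraries and was called lower in all 6 silenced conditions. The part of these markers in the lipid gene values was not tested.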

How the data were processed

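RNA-Seq was made from polyadenylated RNA of SK-N-BE(2) cells with a stranded kit. The submitters' processing notes name STAR 2.5.3a, RSEM 1.3.0, DESeq2 1.26.0 and GRCh38, and the annotation was not given in the sources used here. The values deposited by the authors are a signal: for every gene, its reads over the size factor of that library (0.841 to 1.295). Multiplied back, 100% of the values gave whole reads within 0.02 read, with a largest deviation of 0.015. All columns of per-library values were matched to a library by name. The 3 tables of the authors' own comparisons hold fold changes and p-values and were not used.

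The 40 genes, the other gene lists and the tests were chosen with earlier results of these data known. limma 3.58.1 with a trend was fitted in R 4.3.3 to log2(value + 1) of all 21 libraries in 7 conditions, for the 18584 genes that passed edgeR's low-count filter, with Benjamini-Hochberg adjustment over these genes. A pseudocount of 1 understates the change of low genes. All 21 pairs of replicate libraries differed beyond sampling noise (chi-square per degree of freedom 1.56 to 4.09) and were counted separately.

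Values in every library are given for the efflux genes, the SREBP regulators and genes called with a log2 fold change of at least 1 in size in 3 or more conditions, and the other genes by counts and by the largest and smallest changes. The fit was tested on simulated data before use. Alternatives were edgeR 4.0.16 quasi-likelihood and DESeq2 1.42.0 tests on the recovered reads, other scalings, filters, pseudocounts of 0.5 and 5, 4 label groups, the replicate block and each library left out. Python 3.11.15 with pandas 2.3.3, numpy 2.4.6 and matplotlib 3.10.9 was used.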

Additional observations from a re-analysis of the deposited data

Results flagged for a closer look

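Results were set apart where the 2 conditions of a label were called in opposite directions against Control and differed from each other by at least 1 on the log2 scale in limma. Since they were chosen for that difference, the values are a description with no test. INSIG1 differed by -1.81 between shARID1A.2 (-1.56 against Control) and shARID1A.4 (0.25), and by -1.05 between shARID1B.2 (-0.64) and shARID1B.3 (0.41). NPC2, a lysosomal cholesterol carrier, differed by 1.28 between shARID1A.2 (0.92) and shARID1A.4 (-0.36), and SCD5 by 1.75 between the same conditions (1.62 and -0.13). HMGCS1 differed by -1.27 between shARID1B.2 (-1.09) and shARID1B.3 (0.18), and SCD by -1.17 between shARID1A/B.2.3 (-0.85) and shARID1A/B.4.2 (0.32). With 3 libraries in each condition, no library was tested for lying far from the others.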

How the results depend on the processing

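Counts of the 40 genes called changed by over 1.5 times in 1 setting. With the 2 conditions of each label pooled into 4 groups, 19 genes were called in shARID1A.2 and in shARID1A.4 (38 and 33 otherwise), 7 in shARID1B.2 and in shARID1B.3 (37 and 34), 14 in shARID1A/B.2.3 and in shARID1A/B.4.2 (34 and 34) and 14 between the labels shARID1A/B and shARID1B (33). By construction the spread between the 2 conditions enters the error there, and 1 value stands for both. Signs of called log2 fold changes then turned for SREBF2 (-0.23), LSS (0.065), NPC1 (-0.16) and ACACA (0.045) in shARID1A.2, INSIG1 (-0.66), CYP51A1 (-0.094), NPC2 (0.28) and SCD5 (0.75) in shARID1A.4, LSS (-0.015), CYP51A1 (-0.18), NPC2 (0.14), ACLY (-0.055) and ACACA (-0.10) in shARID1A/B.2.3, NPC1 (-0.032) and SCD (-0.26) in shARID1A/B.4.2, APOE (0.023), SC5D (-0.097) and SCD (0.092) in shARID1B.2, and LPCAT3 (0.13), INSIG1 (-0.12), HMGCS1 (-0.46), FASN (-0.12) and ACSS2 (-0.097) in shARID1B.3. Scaling to total reads and upper-quartile scaling each raised the median log2 fold change of all genes by up to 0.18. With total reads, signs turned for LSS (0.080), EBP (0.047), ACACA (0.013), FADS2 (0.0061) and ACSS2 (0.074) in shARID1A.2, FDFT1 (0.066) and ACSS2 (0.052) between shARID1A.2 and shARID1A.4, MSMO1 (-0.082) between shARID1A/B.2.3 and shARID1A/B.4.2, MYLIP (0.024), SREBF2 (0.079) and FADS2 (0.11) in shARID1A/B.4.2, ACACA (0.0037) and SCD (0.0049) in shARID1B.2, and ELOVL6 (0.011) between shARID1B.2 and shARID1B.3. With upper-quartile scaling they turned for LSS (0.091), EBP (0.057), ACACA (0.024), FADS2 (0.017) and ACSS2 (0.084) in shARID1A.2, FDFT1 (0.012) between shARID1A.2 and shARID1A.4, MSMO1 (-0.017) between shARID1A/B.2.3 and shARID1A/B.4.2, and SREBF2 (0.054) and FADS2 (0.090) in shARID1A/B.4.2. The cause was not tested.

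With each library left out in turn, 37 to 38 genes were called in shARID1A.2, 31 to 33 in shARID1A.4, 35 to 37 in shARID1B.2, 33 to 35 in shARID1B.3, 33 to 34 in shARID1A/B.2.3, 32 to 35 in shARID1A/B.4.2 and 33 to 35 between the labels shARID1A/B and shARID1B. Within a label the counts were 37 to 38 for shARID1A, 32 to 36 for shARID1B and 33 to 34 for shARID1A/B. The gap between the efflux and sterol medians ran from 1.83 to 1.88 in shARID1A.2, 1.21 to 1.28 in shARID1A.4, 0.71 to 0.78 in shARID1B.2, 0.067 to 0.45 in shARID1B.3, 1.36 to 1.39 in shARID1A/B.2.3 and 1.44 to 1.47 in shARID1A/B.4.2. With ABCA1 taken out of the efflux list, the gap was 0.77, 0.42, 0.43, 0.24, 0.60 and 0.90 in the same order. That setting was chosen after seeing the data. ABCA1 is 1 of the 5 genes behind the median, and the median of the others falls between genes that moved in opposite directions. Over the single genes and all alternatives, 251 values lost a call, 72 gained one and 46 called values changed sign.

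Libraries with the same replicate number did not deviate together, with correlations of -0.088 to 0.053 over 63 pairs, and 6 of the 21 libraries were closest to a library of their own number. With the replicate number as a block, 38, 33, 37, 34, 34 and 35 genes were called in the 6 conditions in the order above, 33 between the labels shARID1A/B and shARID1B, and 38, 36 and 34 within the labels shARID1A, shARID1B and shARID1A/B. Fold changes of ABCA1 against the control rest on 18 to 35 reads in each control library, which limits their precision.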
